A study of Mus musculus with 6 samples.

Results

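Fat-like cells of the untreated mouse spleen section were selected by their own transcripts: a segmented cell was taken when it held 5 or more counts of Car3, Retn and Pck1 together. The rule selected 429 of the 108338 cells of the section, or 0.396% with an exact binomial interval of 0.359% to 0.435%. All intervals given here are at 95% confidence and cover counting error only. The section came from the spleen of an adult wild-type mouse, of the C57BL/6 strain per the study's methods, and is compared with the spleen section of a mouse given phenylhydrazine (PHZ), a compound that destroys red blood cells and causes anemia. The PHZ mouse received 40 mg per kg in 2 injections per day for 2 days, and neither mouse is labelled with an engineered allele. RNA molecules of 477 genes were decoded in situ by imaging in sections of 5 µm, on the same run for both spleens, and each cell outline was grown outward from a stained nucleus. The series holds 521938 cells in 6 sections, with 1 section per condition, so cells were not replicates and no test could be made.

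White fat cells store triglyceride in a large droplet that leaves a thin rim of cytoplasm around it, and they are fed through a dense capillary bed. Fat tissue attaches to many abdominal organs, among them the spleen at its hilum, and mesothelial cells line the surface of both. Car3 encodes a carbonic anhydrase that is very abundant in mouse fat cells, Retn the fat hormone resistin, and Pck1 the phosphoenolpyruvate carboxykinase that fat cells use to make the glycerol backbone of triglyceride. Common fat cell markers such as Adipoq, Plin1, Fabp4, Lep and Ucp1 were not among the genes counted. The name "fat-like" therefore rests on the rule genes and on the other genes described here, whose lists were chosen with earlier results of these data known.

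The 3 rule genes chose the cells, so their counts are a description. The fat-like cells held 15355 of the 16837 Car3 counts of the section, 6004 of 6786 Retn counts and 1705 of 1976 Pck1 counts. Car3 was detected in all 429 cells, Retn in 391 and Pck1 in 352, and 335 cells (78.1%) held all 3 genes. Car3 led the sum in 426 cells and Retn in 3. The median fat-like cell held 27 Car3 counts with quartiles of 11 and 47 and a maximum of 183. For Retn the median was 10, with quartiles of 3 and 21 and a maximum of 73, and for Pck1 it was 2, with quartiles of 1 and 6 and a maximum of 23. No other cell of the section had more than 4 Car3, 3 Retn or 2 Pck1 counts. The sum over the rule genes ran from 5 to 263 with a median of 41, which was a median of 17.4% of all counts of a fat-like cell.

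The threshold fell in a thinly filled range. There were 37 cells with exactly 3 rule counts and 17 cells with 4, just outside the rule, and 24 cells with 5, 12 cells with 6 and 11 cells with 7 just inside it. Of the cells just outside, 30 of the 37 and all 17 lay within 50 µm of a fat-like cell.

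The fat-like cells formed a strip on the border of the section. Linking fat-like cells under 50 µm apart put 428 of them into 1 patch, 782 µm long and 172 µm wide, which occupied 0.135 mm² of the 4.67 mm² that held cells. The remaining cell lay 1081 µm from the nearest other fat-like cell and held 5 Car3 counts, 0 Retn and 0 Pck1 counts in an outline of 18.6 µm². The median distance to the edge of the section was 50.2 µm for fat-like cells and 337 µm for all other cells. Within 100 µm of the edge lay 91.8% of the fat-like cells and 12.8% of the others. Where the edge was drawn around the densely packed spleen, as squares of 50 µm with at least 20 cells each, 71.8% of the fat-like cells were outside it, against 0.765% of the other cells.

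**Figure D1:**
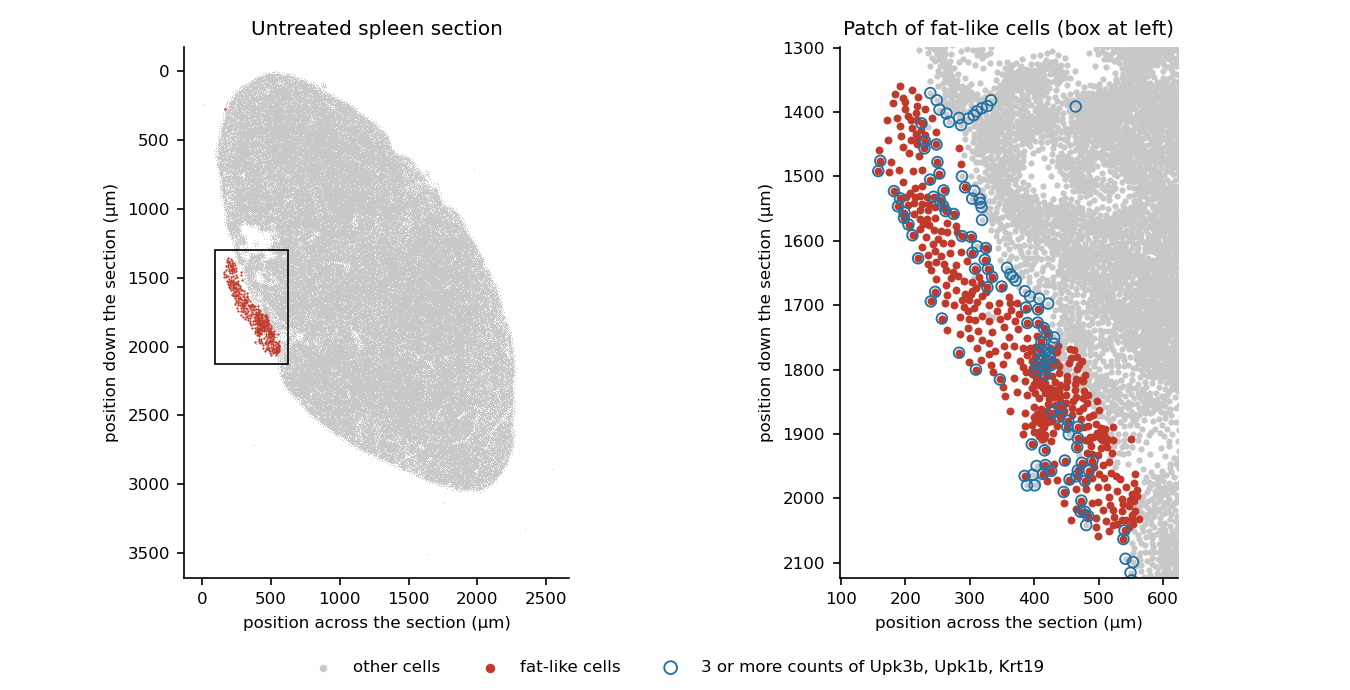
Position of cell centers in the untreated spleen section, in µm, with the whole section at left and the patch at right, where grey points are other cells, red points fat-like cells and blue rings cells with 3 or more counts of Upk3b, Upk1b and Krt19 together. The 428 fat-like cells of the patch lie in a strip on the border of the section, and many blue rings run along both sides of it.

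Inside the strip, fat-like cells were mostly surrounded by their own kind. A fat-like cell had a median of 25 cells within 40 µm, of which 91.9% were fat-like, whereas other cells of the section had a median of 133 cells in that radius. The nearest cell of any kind was 9.71 µm away for a fat-like cell and 5.02 µm for the others, as medians. There were 624 other cells within 50 µm of a fat-like cell, and only 35 other cells with fat-like cells as 3 or more of their 6 nearest neighbors.

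The outlines of the fat-like cells were large beside those of all other cells of the section, and their nuclei were not. Median cell area was 159 µm², with quartiles of 96.1 and 284 µm², against 35.6 µm² (27.5 to 46.2 µm²) in all other cells and 59.8 µm² in other cells within 50 µm. Median nucleus area was 21.0 µm² in fat-like cells, 21.6 µm² in all other cells and 14.4 µm² in other cells within 50 µm. The nucleus took up a median of 12.9% of a fat-like outline and 61.3% of the outline of another cell. Outlines were grown outward from nuclei, and area moved with spacing in these data. Among cells with 19 to 42 cells within 40 µm, the middle range of the fat-like cells, the 459 other cells had a median area of 265 µm², larger than that of the fat-like cells, and the 380 of them over 50 µm away from any fat-like cell had 295 µm². The part of spacing in the area of fat-like cells was not tested.

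**Figure D2:**
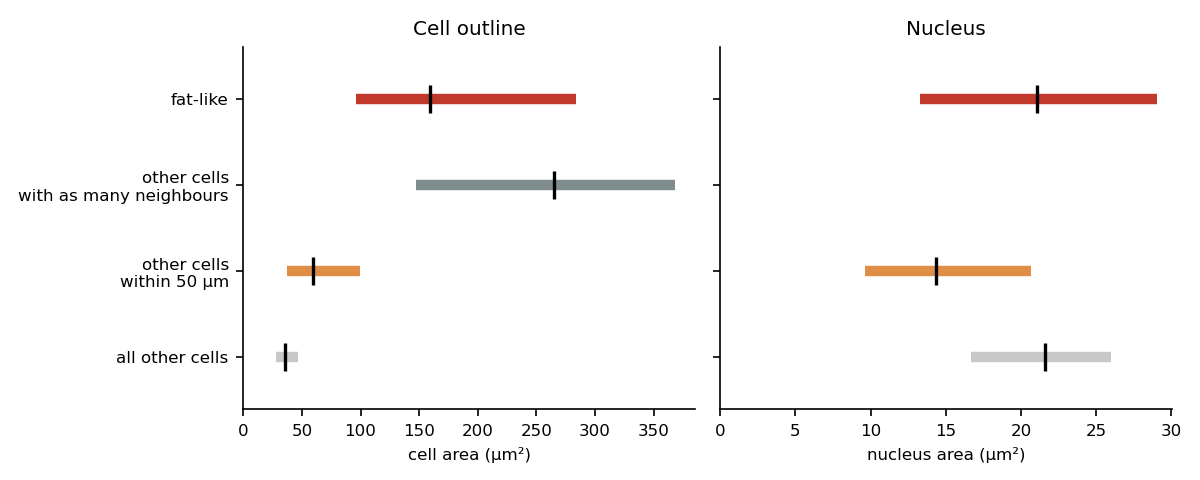
Cell area (left) and nucleus area (right) in µm², with bars from the lower to the upper quartile over cells and a black tick at the median. Fat-like outlines have a median of 159 µm² against 35.6 µm² in all other cells, while other cells with as many neighbors within 40 µm reach 265 µm².

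Fat-like cells yielded more transcripts per cell than other cells and fewer per area, as medians with overlapping ranges. The median was 250 counts of all genes, or 203 without the rule genes, against 83 in the other cells. Per 100 µm² of outline the median was 169 counts in fat-like cells and 239 in others. A median of 71 genes was detected in a fat-like cell and 44 in another, which became 30 and 32 when each cell was thinned to 50 counts of the genes outside the rule. That thinning left out 5 fat-like cells and 16946 others. Probes without a target in the mouse, included as negative controls, gave 51.3 counts per 1000 fat-like cells (32.1 to 77.6) and 5.45 per 1000 others, or 24.8 and 13.5 per 100000 µm² of outline.

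Most rule transcripts in fat-like cells lay away from the nucleus. Of the 23064 rule transcripts there, 13.0% (12.6% to 13.5%) were over the nucleus, against 28.2% of the transcripts of all other genes in the same cells. In cells over 200 µm from any fat-like cell, where rule transcripts are rare, 70.5% of them (68.2% to 72.6%) were over a nucleus. For scale, the nucleus took up a median of 12.9% of a fat-like outline and 61.3% of the outline of another cell. Whether these shares differ from an even scatter of transcripts over the outline was not tested. Among the 158 genes with at least 100 counts in the fat-like cells, Cox8b had the lowest share over the nucleus at 5.41%, followed by Retn and Car3, both at 12.8%, and Ppp1r1a at 12.9%. Trf came next at 14.7%, then Hbb-bt, a hemoglobin gene, at 15.04% and Serpina3n, a protease inhibitor, at 15.1%. Pck1, Hp and Rasd1 followed at 15.4%, 15.8% and 17.0%, so the lowest shares also included a red cell gene that was lower in the fat-like cells. Aqp7 differed from these with 39.6% over the nucleus.

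Rule transcripts were also found around the fat-like cells. Of all 25951 rule transcripts of the section, 1.36% (1.22% to 1.50%) lay in no cell, against 0.593% for all other genes, and 69.0% of these 352 transcripts were within 50 µm of a fat-like cell. Cells that did not pass the rule held 167 rule counts per 100 cells at up to 10 µm from a fat-like cell, 106 at 10 to 25 µm, 41.0 at 25 to 50 µm, 14.4 at 50 to 100 µm, 6.39 at 100 to 200 µm and 1.63 beyond. The level thus fell with each step away from the strip. Whether these counts were made in the neighboring cells or reached their outlines from fat-like cells was not tested.

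**Figure D3:**
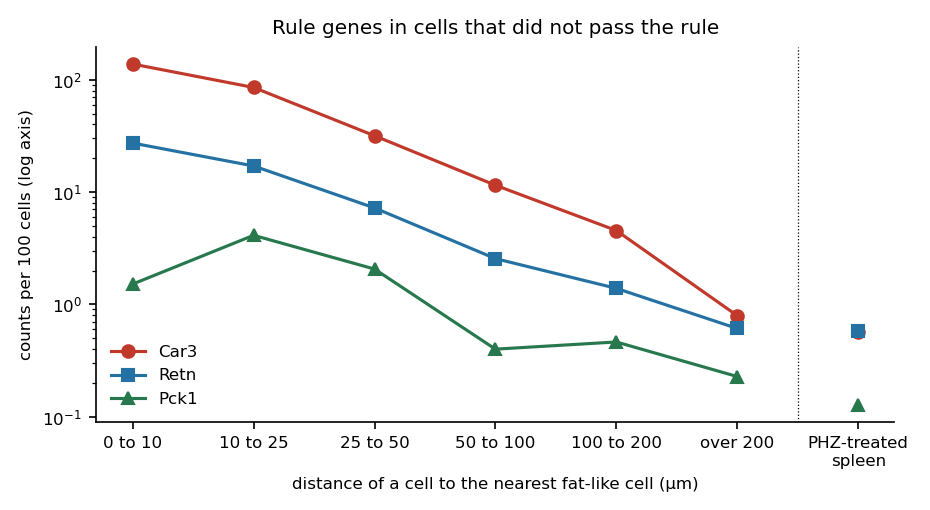
Counts of Car3, Retn and Pck1 per 100 cells that did not pass the rule (log axis), by the distance in µm to the nearest fat-like cell, with the PHZ-treated spleen at right. Car3 and Retn fall with every step, to 0.793 and 0.610 counts per 100 cells beyond 200 µm, while Pck1 is highest at 10 to 25 µm.

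Other genes were compared as CPM, that is counts summed over cells and scaled to a total of 1000000 over the 474 genes that the rule did not use. With at least 20 counts in the fat-like cells, or 20 expected at the rate of all other cells, 289 genes could be compared. Of these, 94 (32.5%) were 2-fold or more higher in the fat-like cells and 128 (44.3%) were 2-fold or more lower, with a median fold of 0.724 over all 289. Among them, 46 genes had fewer than 20 expected counts and entered through their own counts in the fat-like cells, so that being higher was close to fixed by the filter, and 45 of the 46 were. Their folds are given as descriptions. Counts and medians of lists are given over the other 243 genes, of which 49 (20.2%) were 2-fold or more higher and 128 (52.7%) lower, with a median fold of 0.463. Against the other cells within 50 µm, which gave counts for 241 of these genes, 28 (11.6%) were higher and 105 (43.6%) lower, with a median fold of 0.573. The lists were chosen with earlier results of these data known, so the count of each list is a description set beside these shares.

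On the fat and lipid handling list, 10 of the 10 genes with 20 or more expected counts were 2-fold or more higher, where 20.2% of all such genes were, with a median fold of 6.85. Against the other cells within 50 µm 10 of 10 were also higher, where 11.6% of all were, with a median of 3.35. The other 3, Aqp7, Ppp1r1a and Timp4, entered through their own counts. As the list was chosen with earlier results of these data known, its counts are a description. Aqp7, the glycerol channel of fat cells, gave 618 counts in the fat-like cells and 194 in all others. This was 6352 against 18.97 CPM, a fold of 335 (285 to 396). Aqp7 was detected in 53.8% of the fat-like cells and 0.177% of the others, and in 22.9% and 0.0967% after thinning to 50 counts. Of the 191 other cells with Aqp7, 4 were within 50 µm of a fat-like cell, as were 624 of all 107909 other cells. Aqp7 was 135-fold higher (52.5 to 497) than in that neighborhood, where its counts lay in these 4 cells. Per 100 other cells there were 1.52 Aqp7 counts at up to 10 µm from a fat-like cell, 1.76 at 10 to 25 µm and 0 at 25 to 50 µm. Farther out there were 0.479 at 50 to 100 µm, 0.109 at 100 to 200 µm and 0.176 beyond. The first 2 rates come from only 66 and 170 cells and rest on few counts.

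Ppp1r1a, an inhibitor of protein phosphatase 1, was 137-fold higher (109 to 172), with no more than 5 counts in any fat-like cell. Timp4, a metalloproteinase inhibitor found in fat, was 32.6-fold higher (26.7 to 39.5). Cav1, the main protein of caveolae and abundant in both fat and endothelial cells, was 25.9-fold higher (24.9 to 26.9), with a median of 6 counts per fat-like cell and a maximum of 46. Trf, which encodes the iron carrier transferrin, reached 91877 CPM against 7728 CPM, a fold of 11.9 (11.6 to 12.1), with a median of 16 counts and a maximum of 100 in a fat-like cell. It was found in 94.1% of the fat-like cells and 26.2% of the others at 50 counts each. Hp, the hemoglobin-binding haptoglobin, was 11.5-fold higher (10.6 to 12.4).

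The list also held genes of general use in lipid handling and in the blood supply. C3, complement component 3, was 8.27-fold higher (8.04 to 8.51), Mgll, the lipase for monoglycerides, 6.99-fold (6.68 to 7.32), and Cd36, the fatty acid transporter, 6.71-fold (6.54 to 6.88). Cd36 kept its fold next to the strip, at 6.97 against the other cells within 50 µm, whereas C3 dropped to 2.18. Cavin2, a partner of Cav1 in caveolae, was 4.85-fold higher (4.54 to 5.18). The growth factors Igf1 and Vegfa and the fatty acid hydroxylase Cyp4b1 were the least raised, at 3.05-fold (2.86 to 3.25), 2.73-fold (2.53 to 2.93) and 2.14-fold (1.79 to 2.54). Against the 14414 other cells with 144 to 297 counts, the middle range of the fat-like cells, Vegfa was at 1.83 and Cyp4b1 at 1.40, below 2-fold.

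**Figure D4:**
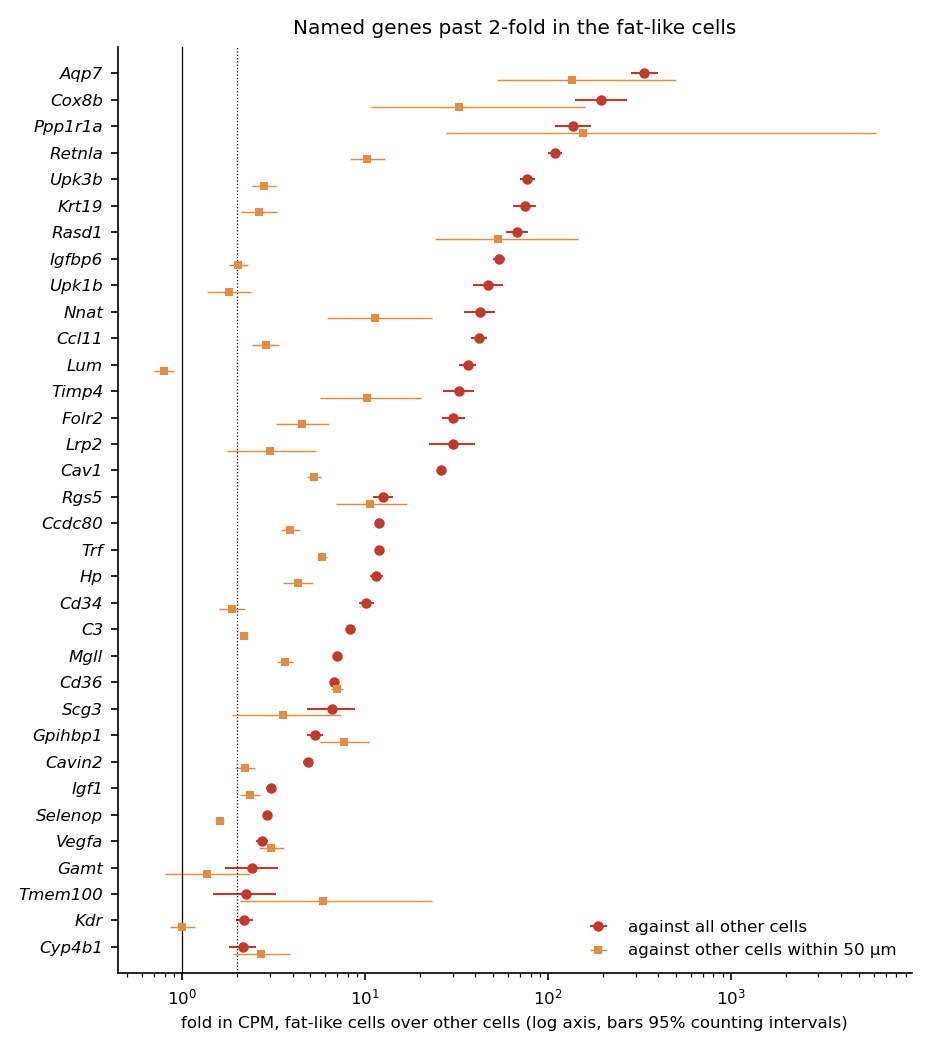
Fold in CPM of the named genes that were 2-fold or more higher in fat-like cells (log axis), against all other cells (red circles) and against other cells within 50 µm (orange squares), with 95% counting intervals. Against the neighborhood Aqp7 was at 135 (52.5 to 497) and Rasd1 at 53.0 (24.1 to 145), the interval of Ppp1r1a ran from 27.6 to 6179, and Lum was below 1.

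On the brown fat and mitochondrial list, none of the 3 genes with 20 or more expected counts was 2-fold or more higher or lower than in all other cells. Cox8b and Gamt entered through their own counts. Cox8b, the heart and brown fat form of a cytochrome c oxidase subunit, had 111 counts in the fat-like cells and 60 in all others, a fold of 195 (141 to 271). Against the other cells within 50 µm it was at 32.3 (10.8 to 159). No other cell had more than 1 Cox8b count, and the highest fat-like cell had 4. The creatine synthesis gene Gamt was 2.41-fold higher (1.71 to 3.31), and at 1.36 against the other cells within 50 µm. Ppargc1a, a regulator of mitochondrial genes, had 55 counts and a fold of 1.44 (1.09 to 1.88), and the respiratory chain gene Ndufs8 a fold of 0.62 (0.57 to 0.68). Ppargc1a was at 4.37 (2.26 to 9.26) against the other cells within 50 µm, at 2.90 against other cells of like depth and at 2.18 over the nucleus only. Ndufs8 turned to 1.40 (1.21 to 1.63) against the other cells within 50 µm.

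Several genes outside these lists were among the most raised. Retnla, Rasd1, Nnat and Ccl11 all entered through their own counts, so their folds are a description. Retnla, a secreted relative of resistin made by fat tissue and by some macrophages, was 109-fold higher (99.9 to 119) than in all other cells and 10.2-fold higher (8.24 to 12.8) than in the other cells within 50 µm. It stood at 10926 CPM in the fat-like cells and at 7206 CPM, from 31 counts, in the 35 other cells lying among them. At least 5 Retnla counts were found in 66 fat-like cells and in 4 other cells, all 4 within 50 µm of a fat-like cell. The highest fat-like cell had 39 Retnla counts, and the median had 1. Rasd1, a small GTPase induced by glucocorticoids, was 67.6-fold higher (59.1 to 77.3) and was 53.0-fold higher (24.1 to 145) than in the other cells within 50 µm. Nnat, a small membrane protein of the endoplasmic reticulum, was 42.2-fold higher (34.5 to 51.4). Ccl11, the eosinophil attractant eotaxin, was 41.8-fold higher (37.9 to 46.0), and 2.85-fold higher than in the other cells within 50 µm.

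Capillary genes moved unevenly. Of the 11 endothelial genes with 20 or more expected counts, 3 were 2-fold or more higher, 3 were lower and 5 were neither. Over all such genes the shares were 20.2% higher and 52.7% lower. Tmem100, a membrane protein of vessels, entered through its own counts. Gpihbp1, which holds lipoprotein lipase on the capillary wall, was 5.32-fold higher (4.82 to 5.87) and 7.62-fold higher than in the other cells within 50 µm. Cd34, a surface protein of capillaries and of progenitor cells, was 10.1-fold higher (9.18 to 11.2), Tmem100 2.23-fold (1.46 to 3.25) and the VEGF receptor Kdr 2.18-fold (1.95 to 2.42), the last at 1.49 against other cells of like depth. Against the other cells within 50 µm Cd34 was at 1.86 and Kdr at 1.00. Of the 11 genes 1 was 2-fold or more higher there and 3 lower, beside 11.6% and 43.6% of all genes, with a median fold of 0.812. Against all other cells, Tie1 was at 1.14 (0.96 to 1.34), Eng at 1.11 (1.00 to 1.23), Clec14a at 1.09 (0.81 to 1.43), Cd93 at 1.50 (1.33 to 1.69) and Sox17 at 1.34 (0.90 to 1.92). Vwf, Calcrl and Plvap, further genes of vessel walls, were lower than in all other cells at 0.38 (0.26 to 0.54), 0.22 (0.18 to 0.27) and 0.12 (0.08 to 0.16). Several of these calls depended on which transcripts were counted. Over the nucleus only, all 5 genes that were neither passed 2-fold, with Tie1 at 2.29, Eng at 2.17, Clec14a at 2.64, Cd93 at 2.42 and Sox17 at 2.81. In that setting 91 genes were higher and 77 lower, and their shares of the genes compared were not computed. Of the 5 genes, Cd93 had the lowest share over the nucleus in fat-like cells, 47.7%, against 28.2% for all genes outside the rule. How far this raised their folds was not tested. Vwf was at 0.92 from 15 counts over the nucleus in the fat-like cells, below the minimum of 20. Tmem100 was at 1.80 when the total included the rule genes and at 1.87 with each cell of equal weight. Without the fat-like cells with 3 or more mesothelial or C1q counts it was at 1.93 and 1.82. At least 3 counts of Kdr, Tie1, Gpihbp1 and Clec14a together were found in 27.3% of the fat-like cells and 4.55% of the others, at unequal depth.

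Genes of the connective tissue were raised far more against the whole spleen than against the surroundings of the strip. On the fibroblast list 10 of the 15 genes with 20 or more expected counts were 2-fold or more higher than in all other cells. This stands beside 20.2% of all such genes, and the median fold of the 15 was 2.89. Against the other cells within 50 µm 2 of the 15 were higher and 5 lower, beside 11.6% and 43.6% of all genes, with a median fold of 0.712. Igfbp6, Lum and Mfap5 entered through their own counts. Igfbp6, a binding protein for insulin-like growth factors, was 53.8-fold higher (49.6 to 58.4) than in all other cells and 2.03-fold higher than nearby. Without the 84 fat-like cells with mesothelial counts, described next, Igfbp6 was 16.2-fold higher, as it stood at 30636 CPM in those 84 and at 2766 CPM in the other 345. Lum, a collagen-binding proteoglycan, was 36.3-fold higher (32.5 to 40.4) than in all other cells and 0.79-fold in the comparison with the neighborhood. Ccdc80, a matrix protein of fat and fibroblasts, was 11.9-fold (11.3 to 12.6) and 3.89-fold higher in the same comparisons. At least 3 counts of Dpt, Lum, Ccdc80 and Igfbp6 together were found in 84.6% of the fat-like cells, 1.83% of all others and 314 of the 624 other cells within 50 µm, at unequal depth.

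The 5 mesothelial genes that were compared all entered through their own counts, so their folds are a description. Upk3b, a uroplakin of the mesothelium, was 76.9-fold higher (69.9 to 84.6), the keratin Krt19 74.2-fold (64.1 to 85.9), Upk1b 46.8-fold (38.6 to 56.6) and the endocytic receptor Lrp2 30.04-fold (22.3 to 40.0). Against the other cells within 50 µm, Upk3b was at 2.80, Krt19 at 2.61, Lrp2 at 3.01 and Upk1b at 1.79, below 2-fold. These counts were held by few cells. At least 3 counts of Upk3b, Upk1b and Krt19 together were found in 84 fat-like cells (19.6%) and in 129 other cells, 47 of them within 50 µm of a fat-like cell. In the other 345 fat-like cells, which were separated by these same counts, Upk3b was at 668 CPM and Krt19 at 281 CPM, against 31393 and 13181 CPM in the 84. The rule counts had a median of 28.5 in the 84 cells and 43.0 in the 345, and the median area was 252 and 143 µm². Outlines that held both sets of transcripts may cover parts of more than 1 cell, which was not tested.

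Macrophage transcripts were found in the fat-like cells and in the cells around them. C1qa, C1qb and C1qc summed to 3 or more counts in 252 fat-like cells (58.7%) and in 35.9% of the others, at unequal depth, and in 408 of the 624 other cells within 50 µm. The CPM of C1qa was 0.82-fold that of the other cells. Of 16 macrophage genes with 20 or more expected counts, 1 was 2-fold or more higher, 7 were lower and 8 were neither. Of all such genes 20.2% were higher and 52.7% lower. Folr2 and Lyve1, the latter shared with lymphatic vessels, entered through their own counts. Folr2, a folate receptor of tissue-resident macrophages, was 30.3-fold higher (26.1 to 35.2) and the selenium carrier Selenop, also made outside macrophages, was 2.90-fold higher (2.83 to 2.97). Against the other cells within 50 µm 0 of the 16 genes were higher and 4 were lower, beside 11.6% and 43.6% of all genes. In that comparison Selenop was at 1.61 and Folr2 at 4.51. Against all other cells Spic, the red pulp macrophage factor, was 0.09-fold (0.07 to 0.11), and the iron exporter Slc40a1 was 0.34-fold (0.32 to 0.37). Folr2 stood at 3401 CPM in the 252 fat-like cells with 3 or more C1q counts and at 596 CPM in the 177 with fewer. The 177 were not free of C1q, as C1qa stood at 1305 CPM there.

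Most genes of the blood cells of the spleen were lower in the fat-like cells. Of all 243 genes with 20 or more expected counts, 52.7% were also 2-fold or more lower. All 12 T and NK cell genes were 2-fold or more lower, with a median fold of 0.171, and Cd4 was at 0.32 (0.28 to 0.37). Of 14 erythroid genes 10 were lower and none was higher. Fech, the last enzyme of heme synthesis and active in many cells, was at 1.22 (1.13 to 1.32), Hemgn had 3 counts in the fat-like cells, and the blood group gene Rhd had 0, at least 17.8-fold lower at a floor of 3 counts over the group, with a fold of up to 0.07 by the counting interval. Among cells with 3 or more rule counts, Rhd was at a fold of 0.14. Of 12 neutrophil and monocyte genes 8 were lower and 1, Mmp9, was higher, beside 52.7% and 20.2% of all genes. Ly6c1, the most counted of them and also carried by vessels, had 461 counts and a fold of 0.90 (0.82 to 0.99), with 1.05 against the other cells within 50 µm. The genes with the lowest folds also included Cxcr5, the homing receptor of follicular B cells, at 0.02 (0.01 to 0.04), Coch at 0.02 (0.01 to 0.03) and 5330417C22Rik, with 0 counts, at least 8.73-fold lower at the same floor and with a fold of up to 0.14 by the counting interval. Against the other cells within 50 µm, 8 of the 12 T and NK cell genes were lower, beside 43.6% of all genes, with a median fold of 0.435. In that comparison 9 of 14 erythroid genes and 8 of 12 neutrophil and monocyte genes were lower. Cxcr5 was there at 0.40 (0.22 to 0.69) and Coch at 0.04 (0.02 to 0.05).

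Lists of neighboring organs gave few counts. The 12 hepatocyte genes had 46 counts in all fat-like cells and the 10 kidney tubule genes 16, and none of them could be compared. Skeletal muscle genes had 140 counts over 13 genes, of which 70 were Mustn1 at a fold of 1.16 (0.90 to 1.47). Pancreatic genes had 133 counts over 10 genes, together 1367 CPM against 939 CPM in all other cells and 611 CPM in the other cells within 50 µm. Both with 20 or more expected counts were 2-fold or more lower. The other 3 compared, Prss3, Try10 and Scg3, entered through their own counts, and all were higher. Scg3 had 49 counts and a fold of 6.56 (4.81 to 8.76). Of the 10 genes, 2 were at 0. Of the smooth muscle and pericyte list 1 of 8 genes was higher and 5 were lower, beside 20.2% and 52.7% of all genes. The higher one was the pericyte gene Rgs5 at 12.5-fold (11.0 to 14.2). Both nerve and glial genes that could be compared were lower, beside 52.7% of all genes. Among them, Prx was at 0.17 (0.11 to 0.26). Prx stood at 1302 CPM in all other cells and at 12472 CPM in the PHZ-treated spleen, so its fold is not read as a measure of nerve.

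The fat-like cells also differed among themselves along the depth of the strip. Sorted by distance from the dense spleen, 120 cells lay inside its edge, 152 at 0 to 50 µm outside, 128 at 50 to 100 µm and 28 farther out. Median rule counts were 16.5, 44.5, 56.0 and 63.5 in this order, and median area was 91.5, 183, 195 and 341 µm². Over the same steps the number of cells within 40 µm fell from 47 to 25, 20 and 13, so spacing moved with both. Trf stood at 53753, 93370, 122532 and 107210 CPM, and Aqp7 at 3922, 6293, 9131 and 5131 CPM. Trf, Cd36, Cav1 and Aqp7 were all lowest inside the edge and highest at 50 to 100 µm.

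Nnat did not follow these genes. It stood at 1961 CPM inside the edge and 2306 CPM at 0 to 50 µm, fell to 260 CPM at 50 to 100 µm, and gave no count in the 28 outermost cells. Dpt, a matrix protein of fibroblasts, fell outward at each step, from 18379 to 13916, 11359 and 5671 CPM. C1qa stood at 13419, 8002, 5345 and 9722 CPM and was thus lowest at 50 to 100 µm. Upk3b stood at 4460, 11068, 4046 and 16203 CPM, with no order along the strip. With 28 cells in the outermost group, its values rest on the fewest counts.

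**Figure D5:**
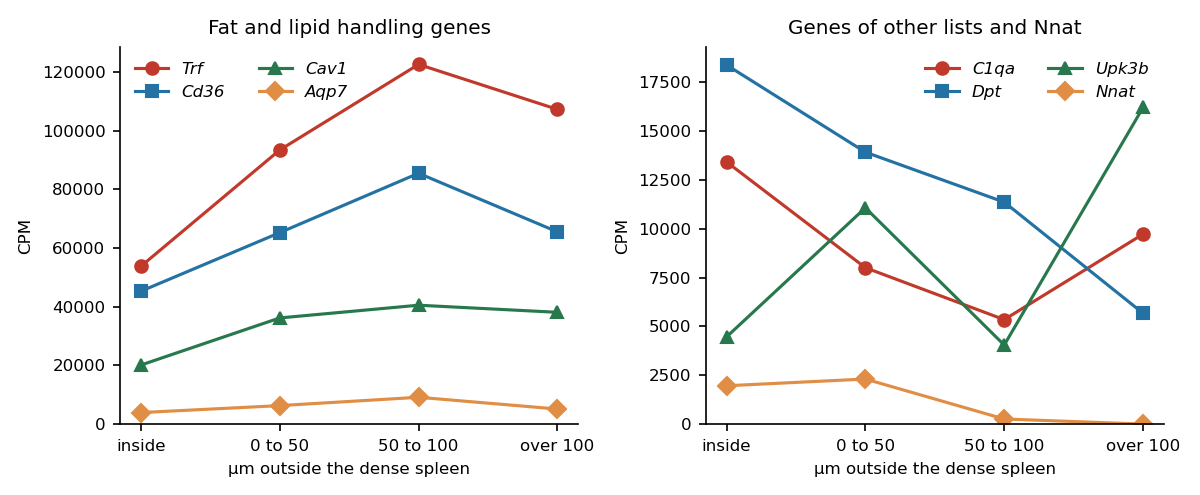
CPM of 4 fat and lipid handling genes (left) and of C1qa, Dpt, Upk3b and Nnat (right) in fat-like cells, by their distance in µm outside the dense spleen. Trf, Cd36, Cav1 and Aqp7 peak at 50 to 100 µm, while Dpt falls from 18379 to 5671 CPM and Nnat ends at 0 CPM in the outermost 28 cells.

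The other genes also differed between fat-like cells with few and with many rule counts, which the rule itself used. In the 65 cells with 5 to 9 rule counts Trf was at 33167 CPM, Aqp7 at 2261 CPM, Cox8b at 94.2 CPM and Rasd1 at 283 CPM. In the 172 cells with 50 or more they were at 128017, 8806, 1667 and 5946 CPM. The steps between were not all upward, as Aqp7 stood at 1725 CPM in the 64 cells with 10 to 19 rule counts, and Timp4 went from 754 to 272 CPM between the lowest of these groups. Retnla was at 11401 CPM in the 65 cells and 10205 CPM in the 172. Upk3b ran from 12343 CPM in the former to 3786 CPM in the latter and C1qa from 13851 to 6111 CPM. The share of Car3 among rule counts fell from 79.1% to 65.5% and that of Retn rose from 15.5% to 27.2%, as a description, since the rule used these counts.

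In the PHZ-treated spleen no cell passed the rule. Its 94582 cells held 540 Car3, 544 Retn and 121 Pck1 counts. A count of 0 passing cells allows a share of up to 0.00317% at a floor of 3 counts. The exact binomial upper limit was 0.00390%. Both limits take cells as independent draws, whereas 428 of the 429 fat-like cells of the untreated section lay in 1 patch. They therefore do not bound the share in other sections of a PHZ-treated spleen. No cell had more than 4 rule counts, 27 cells had 2 or more and 1173 had 1 or more. The rate of 1.27 rule counts per 100 cells compares with 1.63 per 100 in the cells of the untreated spleen over 200 µm from any fat-like cell. Depth per cell was not lower, with a median of 104 counts against 84 in the untreated section. Outlines were larger, at a median of 53.0 µm² against 35.6 µm² in the untreated cells outside the rule. Per area there were fewer counts, with 11430388 over 7.055 mm² of the PHZ-treated section and 10351683 over 4.67 mm² of the untreated one. Of the rule transcripts in cells of the PHZ-treated spleen, 74.9% (72.4% to 77.4%) lay over a nucleus, against 51.0% of those of all other genes.

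Aqp7 gave 246 counts in the PHZ-treated spleen, or 21.5 CPM against 18.97 CPM in the other cells of the untreated section, and no cell there had more than 1. Cox8b had 26 counts and Ppp1r1a 96. Cells with mesothelial counts were present, as 285 cells of the PHZ-treated section had at least 3 counts of Upk3b, Upk1b and Krt19 together, against 213 in the untreated section. With 1 section per condition, an effect of the treatment and a difference in which piece of tissue was cut cannot be told apart. Of the cell names 1 occurred in both spleens.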

How the data were processed

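The members and gene lists were chosen with earlier results of these data known. The authors deposited, for each section, unnormalized counts of each gene's transcripts in each segmented cell, together with cell positions in µm, cell and nucleus areas in µm² (other measures) and, for the smaller panel, single transcripts with a quality score from the deposited run output. Space Ranger is named in the study's methods, whereas the run description names the instrument's own software. Counts were used as deposited. Totals per cell rebuilt from transcripts at a quality score of 20 or more equalled the deposited totals in all 108338 and 94582 cells. The untreated spleen held 10351683 gene counts and the PHZ-treated one 11430388, and the number of counts limits the precision.

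Counts were summed over cells and divided by the total of the 474 genes outside the rule. Folds have exact conditional binomial intervals, shares exact binomial (Clopper-Pearson) intervals and rates of counts exact Poisson intervals, all at 95%. Genes needed 20 observed or expected counts, and a call a 2-fold difference. Lists were counted over genes with 20 expected counts, a choice made after seeing the data. Transcripts imaged are single molecules, and neighbors' transcripts were not removed. Doublets were not called, and no filter on cells was applied. Genes were named when among the 15 highest or 5 lowest folds, on the rule, fat, brown fat or endothelial lists with 20 or more counts, or the most counted of another list. Among these, 1 gene is not reported here. Others named are Lyve1, Mfap5, Mmp9, Prss3, Try10, Hbb-bt, Serpina3n, Dpt, C1qa, Spic and Slc40a1. In the closing section Ptn, Sfrp1, Mmrn1 and Pi16 are also named. All of these were chosen after their values were seen. The edge bounded squares of 50 µm with at least 5 cells. Cells were thinned with seed 1. The fold calculation was tested on simulated data. Python 3.11.15, numpy 2.4.6, scipy 1.17.1 and pandas 2.3.3 were used. The E13.5 fetal liver and 89-week bone marrow were imaged with another panel and were not used.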

Additional observations from a re-analysis of the deposited data

Results flagged for a closer look

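The same rule was met outside the spleens. It selected 1613 of the 117329 cells of the E14.5 fetal liver (1.37%) and 1405 of the 52594 cells of the P8 bone marrow (2.67%). Both shares were larger than the 0.396% of the untreated spleen. These cells were not compared with the fat-like cells above. None of the 1613 and 26 of the 1405 (1.85%) held all 3 rule genes, against 335 of the 429 in the untreated spleen. The highest sum of rule counts in a cell was 16 in the fetal liver and 47 in the bone marrow, against 263, and Car3 gave 9773 of the counts of the passing cells in the fetal liver with 19 of Retn and 105 of Pck1.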

How the results depend on the processing

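No paired analysis was possible because each condition has 1 section and the replicate numbers pair nothing. The 429 fat-like cells became 207 when only transcripts over the nucleus were counted, and stayed between 318 and 483 under the other alternatives for the rule. In the PHZ-treated spleen 3 cells held 3 or more rule counts and 0 held 10 or more, and the alternative total had no passing cells to apply to. Against other cells within 50 µm, 52 genes were 2-fold or more higher and 109 lower, with 46 of the 94 higher genes shared. Over genes with 20 or more expected counts, a filter added after seeing the data, 49 were higher in place of 94. Ptn, Sfrp1, Mmrn1 and Pi16 were higher against all other cells and lower against this neighborhood, and Lum went from 36.3-fold to 0.79. As counts per cell 52 genes were lower in place of 128, and with transcripts over the nucleus only 77 were. As counts per cell Vwf was at 0.91, Calcrl at 0.53 and Cd4 at 0.78. With the rule genes in the total, Cyp4b1 was at 1.73, Gamt at 1.95 and Kdr at 1.76. Of 627 recomputed folds of 57 named genes 1 of those past 2-fold crossed 1 and 320 left their counting interval. The ratio of median cell area to other cells fell from 4.47 to 2.66 for cells within 50 µm and to 0.60 for cells in equally open places, and that of nucleus area went from 0.97 to 1.47 and 1.40. The equally open cells and the sets with under 3 mesothelial or C1q counts were chosen after seeing the data. Without the fat-like cells with 3 or more mesothelial counts Upk3b was 6.62-fold higher, and without those with 3 or more C1q counts Folr2 was 7.58-fold higher. Cells were removed from the fat-like side only. Upk3b was among the genes that chose the removed cells, so its lower fold was fixed in advance. Over the nucleus only, Cox8b was 40.3-fold and Ppp1r1a 53.6-fold higher, from 6 and 23 counts over the nucleus in the fat-like cells. The 6 counts of Cox8b fall below the minimum of 20. Against other cells of like depth Aqp7 was 630.0-fold higher. The median distance to the edge became -30.0 µm, that is outside it, when squares needed 20 cells.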
